A study of Homo sapiens with 6 samples.

Results

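LP-1 cells kept long-term at an extracellular pH (pHe) of 6.8, labelled L.A., were set against LP-1 cells kept short-term at the same pHe, labelled S.A., so the acidity was held equal and the time differed. LP-1 is an established line of human multiple myeloma, a malignancy of plasma cells. Gene expression was measured on 6 arrays, 2 in each of 3 groups whose arrays are called biological replicates. The L.A. cells had a time label of 9 months, which the sample descriptions give as 8 to 10 weeks and the series design as 8 to 10 months. The S.A. cells had a time label of 2 weeks, with 2 to 3 weeks in the descriptions and 2 to 4 weeks in the design. The Ctrl cells, which place each difference between the acid cultures, grew at pHe 7.4 and also carried the time label 9 months. All 3 groups were grown at 37 °C under 5% CO2 in RPMI-1640, to which 15% serum, bicarbonate at 23.8 mM and GlutaMAX at 2 mM were added. No genotype or other agent differed between them by the labels. Of 135574 probe sets, 36176 carried 1 gene symbol, for 33616 symbols in all. The brightest probe set of each symbol was taken and kept where its mean over the 6 arrays reached 3.77, the median over all probe sets. This left 21070 genes, 12213 of them protein coding, for the comparison of 4 of the 6 arrays.

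Bone marrow that holds myeloma can be acid, because tumour cells release lactate and protons. Acid outside a cell lowers the pH inside it, which slows glycolysis and the cell cycle and engages stress pathways such as the integrated stress response, in which translation is damped and the transcription factor ATF4 induces amino acid and redox genes. Cells that live on in acid often shift from glucose to fatty acids and glutamine as fuels and adjust their proton transport. Plasma cells add a heavy secretory load, which keeps the unfolded protein response of the endoplasmic reticulum active.

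Each level below is a deposited value, taken to be on a log2 scale, in the order replicate 1 and replicate 2. Differences are L.A. minus S.A. on that scale, and a gene was called at a limma adjusted p under 0.05 over all 21070 genes. The array medians lay between 3.77 and 3.8. The labelled cell type matched its markers: all 10 plasma cell markers lay above that median on every array, with JCHAIN, the joining chain of secreted antibody, at 19.96 and 19.91 in L.A., 19.82 and 19.91 in S.A. and 19.93 and 19.91 in Ctrl. With limma, 0 of the 10 housekeeping genes kept were called (3 at an unadjusted p under 0.05), and their median difference was 0.18. The 4 lists of T and NK cell, monocyte, stromal and endothelial, and erythroid and platelet markers had 0 called genes among the 25 kept (3 at an unadjusted p under 0.05), also with the block. Time in acid and time in culture differed together between L.A. and S.A. and cannot be told apart. The cultures are separate samples, and whether L.A. cells had passed through the state seen in S.A. cells was not measured.

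Between the acid cultures, 1834 genes were called higher in L.A. than in S.A. and 1526 lower, which is 8.7% and 7.24% of the genes tested. The 2 arrays of L.A. lay wholly above or below those of S.A. for 57.5% of all genes, so such a separation on its own says little. The replicate 1 arrays as a set hardly differed from the replicate 2 arrays in the deposited values, so counts from a fit with the replicate number as a block stand beside the others. With the block, 1022 genes were called higher and 801 lower (4.85% and 3.8%), and all 1823 were among the 3360 called without it. Protein-coding genes were called more often, at 22% without the block and 12.5% with it. By direction, 12.3% of them were called higher and 9.75% lower without the block. List counts below are to be read against these shares, also where they are not repeated. The number called moved with single arrays. Without L.A. replicate 1 it was 845 higher and 658 lower, without L.A. replicate 2 it was 933 and 753, without S.A. replicate 1 it was 1361 and 895, and without S.A. replicate 2 it was 1031 and 1022.

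The Ctrl arrays, which had no part in the L.A. minus S.A. difference, were used to sort the called genes by where the Ctrl mean lay on the line through the L.A. and S.A. means. In 1583 genes (47.1%) the Ctrl mean lay within 0.333 of the difference from the L.A. mean, so the S.A. cells stood apart and the L.A. cells were at or near the Ctrl level. These genes are said to have returned. L.A. and Ctrl also shared the time label of 9 months, which S.A. did not, so the word names a position only. Whether a response to acid was reversed, or the time in culture set S.A. apart, was not tested. In 553 genes (16.5%) it lay within 0.333 of the difference from the S.A. mean, so the L.A. cells stood apart, and the change is said to have been added. In 894 genes (26.6%) Ctrl lay in the middle of the range, with L.A. on one side of it and S.A. on the other. A further 259 genes (7.71%) had returned in part, with L.A. between S.A. and Ctrl, and 71 (2.11%) had moved further from Ctrl in the same direction as S.A. With the block these shares were 49.7%, 15.3%, 28.2%, 5.38% and 1.43%. Over all genes kept, called or not, the same classes held 25.3%, 15.7%, 13.8%, 25.7% and 19.6%. With the near classes narrowed to 0.25 of the difference, 36.6% of called genes had returned, 11.6% had an added change, 38.1% had Ctrl in the middle of the range, 10.8% had returned in part and 2.89% had moved further, so the class with the most genes changed with the width. The classes are a description and carry no test.

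**Figure D1:**
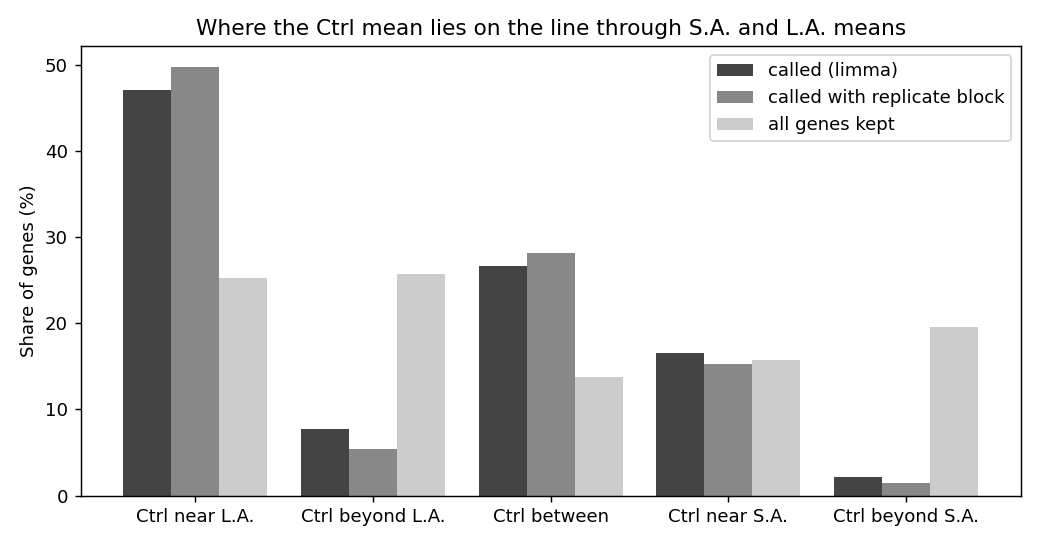
Share of genes (%, vertical axis) in each of 5 classes of the position of the Ctrl mean relative to the L.A. and S.A. means, for genes called by limma, genes called with the replicate block and all genes kept. At the width of 0.333 drawn here, Ctrl near L.A. is the tallest class among called genes, at 47.1%, against 25.3% of all genes kept; at 0.25 it holds 36.6%, below the 38.1% with Ctrl in the middle.

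The largest rise in L.A. was that of TMT1A, a thiol methyltransferase of the endoplasmic reticulum, at 15.05 and 14.94 in L.A., 5.41 and 5.76 in S.A. and 8.96 and 8.64 in Ctrl. It rose by 9.41 ± 0.19 (log2 difference ± SE, limma adjusted p = 2.61e-05). The L.A. arrays lay above and the S.A. arrays below the Ctrl level, with no overlap between any of the 3 groups. The same order held for ITGB7, the integrin beta subunit that pairs with alpha 4 to bind the gut addressin, at 14.26 and 14.35 in L.A., 6.41 and 6.46 in S.A. and 11.65 and 11.51 in Ctrl, a rise of 7.87 ± 0.14 (limma adjusted p = 1.6e-05). S1PR1, a sphingosine phosphate receptor that draws lymphocytes into blood and lymph, was at 10.60 and 9.98 in L.A., 3.53 and 4.79 in S.A. and 7.14 and 6.35 in Ctrl. The transcribed pseudogene ZBED10P was at 10.73 and 10.52 in L.A., 5.44 and 5.49 in S.A. and 7.52 and 7.79 in Ctrl. In each of these 4 genes the S.A. arrays were the lowest and the L.A. arrays the highest.

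Other large rises were added in L.A., with S.A. and Ctrl both well below L.A. CD180, a B cell surface protein related to Toll-like receptors, was at 17.29 and 16.80 in L.A., 8.83 and 9.94 in S.A. and 7.85 and 7.18 in Ctrl, a rise of 7.66 ± 0.42 (limma adjusted p = 0.000564). RANBP3L, which exports SMAD proteins from the nucleus, was at 13.01 and 12.51 in L.A., 4.83 and 4.64 in S.A. and 4.12 and 4.82 in Ctrl. S.A. and Ctrl overlapped for RANBP3L, and both were about 8 below L.A., where the difference from S.A. was 8.03. TTN, the giant spring protein of muscle, was at 13.22 and 12.64 in L.A., 3.96 and 5.09 in S.A. and 6.22 and 5.68 in Ctrl, and CCR1, a receptor for the chemokine CCL3, at 10.85 and 10.95 in L.A., 2.73 and 3.36 in S.A. and 5.56 and 4.72 in Ctrl. Both S.A. values of CCR1 were under 3.77, and the rise of 7.85 therefore depends on the background there. IDH2, the mitochondrial isocitrate dehydrogenase that uses NADP, rose by 4.73. It was at 11.04 and 11.67 in L.A., 6.72 and 6.53 in S.A. and 8.08 and 7.68 in Ctrl. S.A. also differed from Ctrl in some of these genes. By limma, S.A. minus Ctrl was called for CD180, with S.A. higher, and for CCR1 and IDH2, with S.A. lower. That difference was not called for RANBP3L and TTN.

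Another 4 of the 12 largest rises were returns to a high Ctrl level. EMP2, a tetraspan membrane protein, was at 13.03 and 13.23 in L.A., 7.57 and 7.23 in S.A. and 13.07 and 13.08 in Ctrl, so L.A. and Ctrl shared a level and S.A. alone was low, by 5.73 ± 0.17 (limma adjusted p = 0.000125). CXCL10, a chemokine that attracts T cells, was at 12.33 and 12.44 in L.A., 6.70 and 7.02 in S.A. and 11.78 and 11.22 in Ctrl. CHRDL1, a secreted antagonist of BMP ligands, was at 10.88 and 11.04 in L.A., 5.06 and 5.77 in S.A. and 9.99 and 9.17 in Ctrl, and S100A4, a calcium-binding protein linked to cell motility, at 10.50 and 10.75 in L.A., 5.32 and 4.00 in S.A. and 8.28 and 9.27 in Ctrl. In the last 3 genes both L.A. arrays were also above both Ctrl arrays. In none of the 3 was L.A. minus Ctrl called (limma adjusted p = 0.104, 0.0952 and 0.115).

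The largest fall was that of SLAMF7, the plasma cell surface receptor targeted by the antibody elotuzumab. It was at 7.47 and 7.42 in L.A., 16.66 and 16.87 in S.A. and 14.71 and 14.48 in Ctrl, and fell by 9.32 ± 0.15 (limma adjusted p = 1.6e-05). The loss was added in L.A.: the S.A. arrays were the highest of the 6. CD48, a related receptor of the SLAM family, was at 6.05 and 6.90 in L.A., 12.99 and 11.92 in S.A. and 12.42 and 12.51 in Ctrl, with S.A. and Ctrl overlapping and L.A. low. IL6R, the receptor of the myeloma growth factor interleukin-6, was at 4.91 and 4.04 in L.A., 10.00 and 9.82 in S.A. and 8.81 and 9.61 in Ctrl, and INHBE, a subunit of activins that the integrated stress response induces, at 4.32 and 4.45 in L.A., 9.68 and 9.86 in S.A. and 8.63 and 8.40 in Ctrl. A second, dimmer probe set of IL6R differed by -0.19. WNT10A, a Wnt ligand, fell below a shared S.A. and Ctrl level. It was at 6.22 and 6.49 in L.A., 9.64 and 9.52 in S.A. and 9.54 and 9.50 in Ctrl. By limma, S.A. minus Ctrl was called for SLAMF7 and INHBE, with S.A. above Ctrl, so S.A. also differed from Ctrl there. That difference was not called for CD48, IL6R and WNT10A.

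NCAM1, the adhesion molecule CD56 that many myeloma cells carry, returned in L.A. from a high S.A. level. It was at 4.45 and 4.76 in L.A., 12.60 and 11.76 in S.A. and 5.10 and 5.54 in Ctrl, and fell by 7.57 ± 0.31 (limma adjusted p = 0.000314). The second probe set of NCAM1 was dim and differed by 0.01. CFAP126, a protein of cilia and flagella, was at 4.95 and 4.76 in L.A., 11.11 and 11.04 in S.A. and 4.21 and 4.40 in Ctrl, and NSG2, a vesicle protein of neurons, at 4.87 and 4.44 in L.A., 9.61 and 10.13 in S.A. and 3.47 and 3.63 in Ctrl. PIK3CG, the catalytic gamma subunit of PI3-kinase, was at 5.53 and 5.86 in L.A., 11.28 and 12.56 in S.A. and 7.88 and 6.36 in Ctrl, and its second, dimmer probe set differed by -0.33. In these 4 genes S.A. stood apart and high, and for CFAP126 and NSG2 the Ctrl arrays were the lowest. For neither was L.A. minus Ctrl called (limma adjusted p = 0.119 and 0.0688).

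Falls with L.A. and S.A. on opposite sides of Ctrl included S100A11, a calcium-binding partner of annexins, at 6.22 and 5.90 in L.A., 11.57 and 12.76 in S.A. and 9.80 and 8.95 in Ctrl. HVCN1, the voltage-gated channel that lets protons leave the cell, was at 9.94 and 10.63 in L.A., 15.40 and 15.11 in S.A. and 13.08 and 12.73 in Ctrl. The channel gene fell by 4.97 ± 0.27 (limma adjusted p = 0.000564), with no overlap between groups. NIPAL2, a member of a family of magnesium transporters, was at 4.01 and 4.29 in L.A., 9.44 and 9.19 in S.A. and 6.40 and 6.33 in Ctrl, and the transcribed pseudogene ANKRD36BP2 at 8.67 and 7.70 in L.A., 13.05 and 13.41 in S.A. and 10.44 and 10.73 in Ctrl. These 24 largest changes were picked from genes called with and without the block, so their calls there followed from the choice. All 24 kept their direction in every setting that held them, which are refits of the same arrays.

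**Figure D2:**
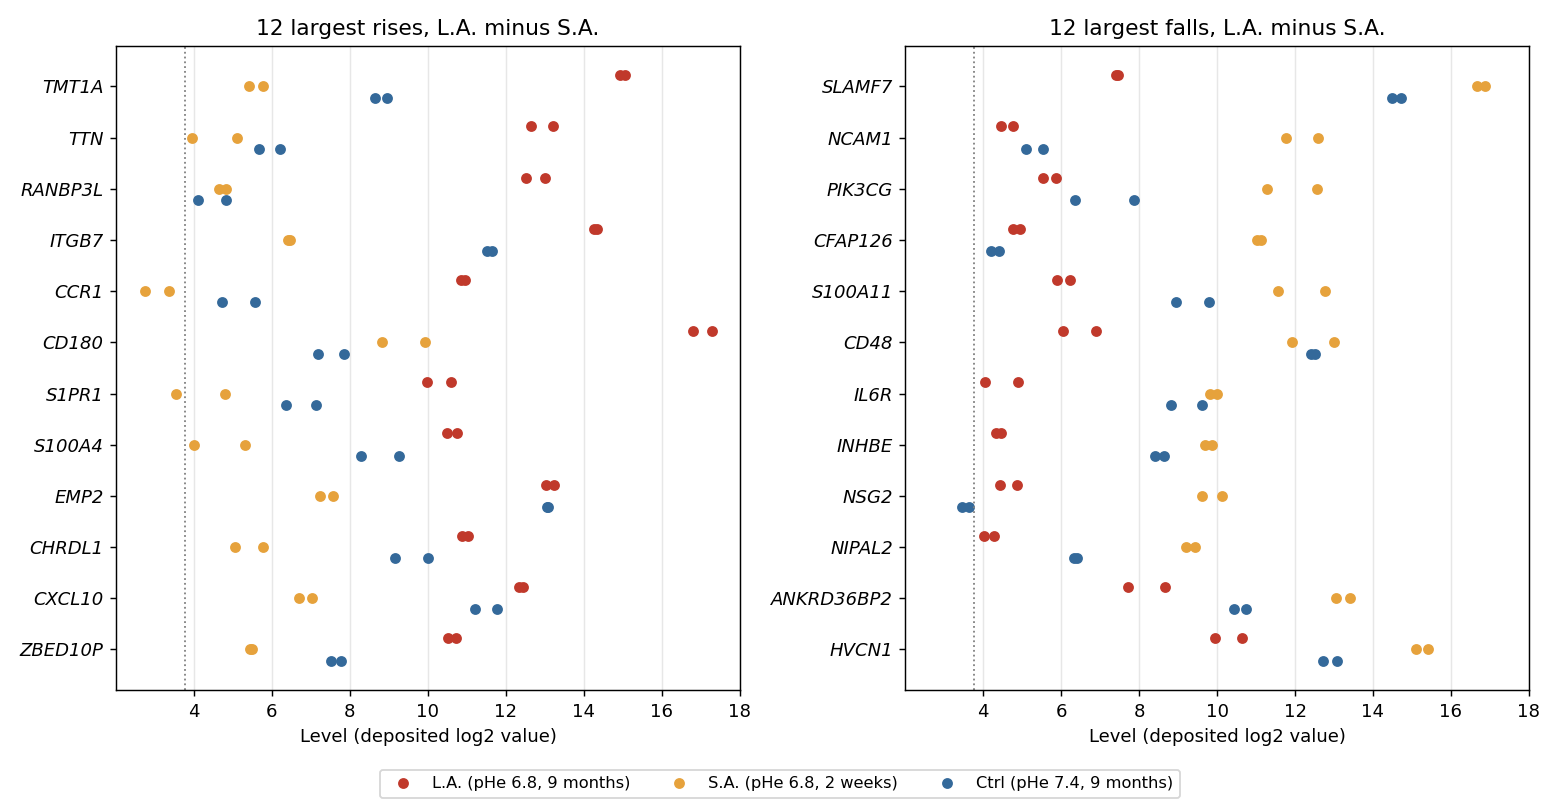
Deposited log2 level (horizontal axis) of the 12 genes with the largest rises (left) and the 12 with the largest falls (right) in L.A. minus S.A., with 1 point per array, and the filter median of 3.77 as a dotted line. The Ctrl points lie with L.A. for EMP2 and NCAM1, with S.A. for RANBP3L and CD48, and between them for TMT1A and HVCN1.

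Partial returns were led among rises by GLDCP1, a pseudogene of glycine decarboxylase, at 7.76 and 7.38 in L.A., 5.66 and 4.75 in S.A. and 7.85 and 9.19 in Ctrl, and by NDNF, a secreted neurotrophic factor, at 8.06 and 8.25 in L.A., 5.78 and 6.21 in S.A. and 10.74 and 9.91 in Ctrl. UGT8, which makes galactosylceramide, rose by 2.05, and GNAL, a stimulatory G protein alpha subunit, by 2.03, both to below Ctrl. Among falls they were led by PLAAT4, a phospholipase and acyltransferase induced by retinoids, at 13.68 and 14.12 in L.A., 17.03 and 16.95 in S.A. and 12.54 and 12.11 in Ctrl. HEY1, a Notch target, fell by 2.49, and CREB5, a basic leucine zipper factor, by 2.15. By limma, L.A. minus Ctrl was called for NDNF, GNAL and PLAAT4 (adjusted p = 0.0233, 0.00586 and 0.0238). It was not called for GLDCP1, UGT8, HEY1 and CREB5 (limma adjusted p = 0.353, 0.0608, 0.0855 and 0.227), so their class rests on the means alone. The call for GLDCP1 was lost without L.A. replicate 1, L.A. replicate 2 or S.A. replicate 2, and that for CREB5 without either L.A. array.

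In a few genes the mean of S.A. lay between those of Ctrl and L.A., so L.A. was further from Ctrl in the same direction. Among those named here, S.A. minus Ctrl was called only for ID2 and LOXL4 (limma adjusted p = 0.0279 and 0.0439). For the others it was not called (0.0622 to 0.202), and S.A. and Ctrl overlapped for SEMA5A. GNPTAB, which builds the tag that sends enzymes to lysosomes, was at 12.64 and 12.14 in L.A., 9.25 and 10.16 in S.A. and 8.75 and 8.44 in Ctrl. ID2, which blocks basic helix-loop-helix factors, was at 12.38 and 12.84 in L.A., 10.13 and 10.21 in S.A. and 9.20 and 8.53 in Ctrl. SEMA5A, a guidance molecule, rose by 2.14 and FGFR2, a fibroblast growth factor receptor, by 1.80. The adhesion scaffold BCAR1 fell by 1.49, the lysyl oxidase relative LOXL4 by 1.47, RELL1, a relative of TNF receptors, by 1.64 and the peptide hormone gene SPX by 1.33. SEMA5A lost its call without either L.A. array, BCAR1 without L.A. replicate 1, and SPX without either L.A. array or S.A. replicate 1.

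Genes of cell division returned as a group. Of 40 mitosis and G2/M genes, 37 rose in L.A. and 0 fell, 34 with the block, against 8.7% of all genes called higher and 4.85% with the block. The median difference over the list was 1.71, against 0.02 over all genes kept, and all 40 genes were higher in L.A. than in S.A. by 0.31 to 3.07. The list's median level was 11.58 and 11.78 in the L.A. arrays, 10.05 and 9.67 in the S.A. arrays and 11.36 and 11.39 in the Ctrl arrays. The L.A. arrays thus sat slightly above the Ctrl arrays and both S.A. arrays well below. Of the 37 called genes, 28 had returned and 8 had Ctrl in the middle of the range.

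MKI67, which coats mitotic chromosomes and marks dividing cells, was at 13.54 and 13.15 in L.A., 10.35 and 10.19 in S.A. and 13.25 and 13.58 in Ctrl. It rose by 3.07 ± 0.20 (limma adjusted p = 0.000846), and its L.A. and Ctrl arrays overlapped. HMMR, a spindle protein, was at 10.69 and 11.10 in L.A., 8.49 and 7.70 in S.A. and 10.45 and 10.66 in Ctrl, and the cell cycle phosphatase CDC25B at 12.02 and 12.06 in L.A., 9.35 and 9.68 in S.A. and 11.43 and 11.11 in Ctrl. ANLN, a scaffold of the cleavage furrow, was at 13.29 and 13.19 in L.A., 10.48 and 10.09 in S.A. and 11.87 and 12.08 in Ctrl, which put L.A. above Ctrl as well as above S.A. Its second, dimmer probe set differed by 0.07. Of the DNA replication and G1/S genes, 35 of 38 kept rose and 0 fell, 33 with the block, with a median difference of 1.55. Of the 35, 28 had returned. E2F8, a repressor of the E2F family, was at 12.24 and 12.34 in L.A., 9.43 and 8.73 in S.A. and 11.46 and 11.77 in Ctrl. CLSPN, an adaptor of the replication checkpoint, rose by 2.89, CDC45, a part of the replicative helicase, by 2.74, and the activator E2F2 by 2.28. L.A. exceeded Ctrl on both arrays in each of these 4 genes. By limma, L.A. minus Ctrl was called for CLSPN and E2F2 (adjusted p = 0.0353 and 0.0374). It was not called for E2F8 and CDC45 (limma adjusted p = 0.22 and 0.054).

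The promoters of the division genes that rose are shown because the lists differ in a short element, the cell cycle homology region (CHR), that binds repressor complexes in resting cells. Promoter sequences are those of RefSeq on GRCh38.p14, and motifs were searched on both strands from position -250 to position 50 relative to each gene's start. TTTGAA, the CHR core, was in 23 of 33 mitosis promoters found (69.7%), in 1 of 34 replication promoters (2.94%) and in 10.9% of promoters of protein-coding genes kept. CCAAT was in 75.8% of mitosis and 64.7% of replication promoters, against 37.2%. GGCGGGA, an E2F site core, was in 30.3% of mitosis and 55.9% of replication promoters, against 24%. A match is a description of the sequence and not evidence that a factor was bound. The examples printed below all hold matches, and not every named gene did. From position -150 to position -1, CDC25B held only the E2F core, and E2F2 held none of the 3 motifs. The stretch from position -150 to position -1 is given below in lower case for 3 mitosis genes and 1 replication gene, with the motifs of these 3 kinds in capitals. They are MKI67 (chr10:128126424-128126573, minus strand), HMMR (chr5:163460482-163460631, plus strand), ANLN (chr7:36389712-36389861, plus strand) and CDC45 (chr22:19479770-19479919, plus strand).
MKI67: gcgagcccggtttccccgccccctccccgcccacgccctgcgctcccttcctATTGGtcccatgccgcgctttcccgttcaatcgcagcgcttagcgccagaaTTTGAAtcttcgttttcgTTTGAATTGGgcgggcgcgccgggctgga
HMMR: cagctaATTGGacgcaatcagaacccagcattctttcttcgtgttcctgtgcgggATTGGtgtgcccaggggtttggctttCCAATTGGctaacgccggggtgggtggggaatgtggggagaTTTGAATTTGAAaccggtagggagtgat
ANLN: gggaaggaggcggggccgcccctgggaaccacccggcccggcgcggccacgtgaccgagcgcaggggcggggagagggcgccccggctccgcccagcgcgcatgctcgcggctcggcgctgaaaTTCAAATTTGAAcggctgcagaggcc
CDC45: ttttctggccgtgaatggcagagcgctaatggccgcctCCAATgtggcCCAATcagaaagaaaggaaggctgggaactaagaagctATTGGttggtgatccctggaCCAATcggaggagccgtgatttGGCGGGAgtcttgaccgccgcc

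Replication-dependent histone genes, which supply the nucleosomes of S phase, rose in 20 of 30 kept, 19 with the block, and 0 fell. The median difference was 1.19. The count was 11 without L.A. replicate 1, 10 without L.A. replicate 2 and 12 without S.A. replicate 2. H2AC4, a histone H2A gene, was at 15.87 and 15.93 in L.A., 13.80 and 13.55 in S.A. and 15.10 and 15.13 in Ctrl, and H2BC17, a histone H2B gene that lost its call without L.A. replicate 1, rose by 2.55. H4C4 and H4C9, which encode histone H4, were added rises. H4C4 was at 13.32 and 13.35 in L.A., 11.36 and 11.27 in S.A. and 11.45 and 11.27 in Ctrl and H4C9 at 14.35 and 14.02 in L.A., 12.27 and 12.16 in S.A. and 12.37 and 12.67 in Ctrl, so S.A. shared the Ctrl level. Histone genes are alike in sequence, and probes could not be checked for signal shared between copies.

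Of 16 cell cycle inhibitors and p53 targets kept, 4 rose and 6 fell, 2 and 3 with the block. CDKN2A, which encodes the CDK4 inhibitor p16 and ARF, was at 10.39 and 10.61 in L.A., 7.93 and 7.36 in S.A. and 9.02 and 9.35 in Ctrl, highest in L.A. and lowest in S.A. The sestrins SESN1 and SESN2, stress-induced inhibitors of mTORC1, fell by 1.71 and 1.35, and the p53 target ZMAT3 fell by 1.49. Leaving out any 1 of the 4 acid arrays left 3 falls. The rises came to 1 without L.A. replicate 1 and to 2 without L.A. replicate 2 or S.A. replicate 2.

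**Figure D3:**
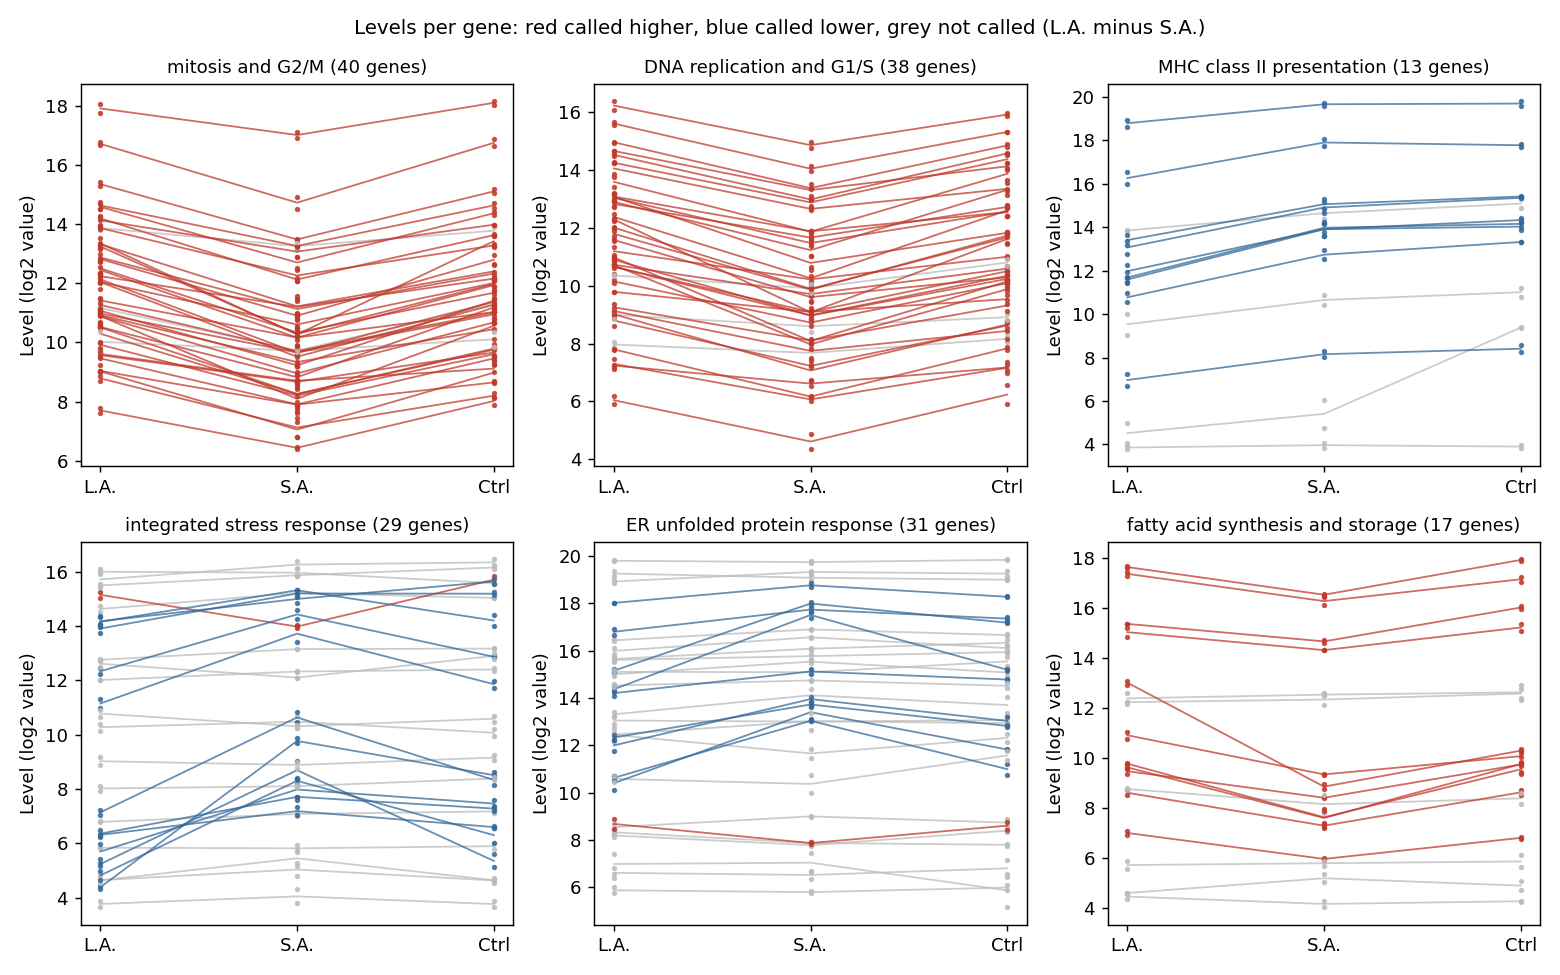
Deposited log2 levels (vertical axis) of single genes in L.A., S.A. and Ctrl for selected gene lists, with 1 line per gene, red where called higher, blue where called lower and grey where not called in L.A. minus S.A. Mitosis and replication genes dip in S.A., with list medians of 1.71 and 1.55 for L.A. minus S.A., and the 9 called MHC class II genes are low in L.A.

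Many of the lipid synthesis genes that were called had also returned, 7 of the cholesterol list and 8 of the fatty acid list. Ctrl lay in the middle of the range for 2 called genes in each list, among them PMVK, ELOVL6 and FADS2. Of 20 cholesterol synthesis and uptake genes kept, 11 rose and 1 fell, 9 and 0 with the block, with a median difference of 0.90. Without L.A. replicate 2, 6 rose. MVD, the decarboxylase of the mevalonate pathway, was at 9.24 and 9.25 in L.A., 7.26 and 7.28 in S.A. and 10.28 and 10.12 in Ctrl, a partial return. PMVK, a kinase of the same pathway, rose by 1.81, FDPS, which makes farnesyl diphosphate, by 1.37, and INSIG1, the sterol-induced brake on SREBP processing, by 1.33. INSIG1 lost its call without L.A. replicate 2. Of 17 fatty acid synthesis and storage genes kept, 11 rose and 0 fell, 9 with the block, with a median difference of 1.04. FASN, fatty acid synthase, was at 9.65 and 9.59 in L.A., 7.95 and 7.25 in S.A. and 9.45 and 10.05 in Ctrl, and SREBF1, the transcription factor of these genes, at 9.74 and 9.80 in L.A., 7.89 and 7.37 in S.A. and 9.35 and 9.74 in Ctrl. L.A. and Ctrl overlapped for FASN and were both above S.A. for both genes. ELOVL6, which lengthens saturated fatty acids, was at 13.09 and 12.92 in L.A., 8.75 and 8.95 in S.A. and 10.37 and 10.21 in Ctrl, so L.A. was well above Ctrl and S.A. below it. FADS2, a desaturase, rose by 1.56. CACNCCAC, a sterol regulatory element core, was in 16.7% of 18 cholesterol promoters and 5.67% of those of protein-coding genes kept.

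Glycolysis was split. Of 19 genes kept, 6 rose and 4 fell, 3 and 0 with the block, with a median difference of 0.43. The rises came to 1 without L.A. replicate 2 and 3 without S.A. replicate 2, and the falls to 0 without L.A. replicate 1 or S.A. replicate 1, 1 without L.A. replicate 2 and 2 without S.A. replicate 2. LDHA, which turns pyruvate into lactate, was at 18.91 and 19.16 in L.A., 17.45 and 17.24 in S.A. and 19.26 and 19.20 in Ctrl, a return by 1.69 ± 0.16 (limma adjusted p = 0.00232). PGAM1, a mutase of lower glycolysis, rose by 1.18 and lost its call without L.A. replicate 2. PFKFB3, which makes an activator of phosphofructokinase, was at 6.26 and 6.30 in L.A., 4.75 and 5.16 in S.A. and 7.74 and 7.24 in Ctrl, still below Ctrl, and lost its call without either L.A. array. For PFKFB3, L.A. minus Ctrl was not called (limma adjusted p = 0.0504). HK2, a hexokinase, was at 7.03 and 7.44 in L.A., 8.60 and 7.94 in S.A. and 9.76 and 9.88 in Ctrl, lowest in L.A. The call for HK2 was lost with the block (limma adjusted p = 0.076), without either L.A. array and without S.A. replicate 1.

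Of 24 hypoxia response genes kept, 2 rose and 4 fell, 1 and 3 with the block, and the median difference was 0.02. The share of rises lies near the 8.7% of all genes called higher. STC2, a secreted glycoprotein of stressed cells, was at 4.67 and 4.97 in L.A., 8.19 and 8.42 in S.A. and 6.58 and 6.03 in Ctrl, with L.A. below and S.A. above Ctrl. ANKRD37, a hypoxia-induced ankyrin protein, fell by 1.87, and DDIT4, an inhibitor of mTORC1, rose by 1.17. PDK1, the kinase that closes the entry of pyruvate into the TCA cycle, fell by 1.02, a call lost with the block, without L.A. replicate 1 and without S.A. replicate 1.

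Oxidative phosphorylation genes that were called were all higher in L.A. Of 41 oxidative phosphorylation genes kept, 10 rose and 0 fell, 4 with the block, with a median difference of 0.48, against 8.7% of all genes called higher and 4.85% with the block. The count was 4 without L.A. replicate 1, 2 without L.A. replicate 2 and 2 without S.A. replicate 2. NDUFV2, a subunit of complex I, was at 17.60 and 17.38 in L.A., 15.03 and 14.68 in S.A. and 16.16 and 16.75 in Ctrl, highest in L.A., and UQCRC1 of complex III rose by 1.39. The L.A. minus Ctrl difference of NDUFV2 was not called (limma adjusted p = 0.0848). COX4I1 of complex IV rose by 1.37, lost without either L.A. array or S.A. replicate 2, and CYC1 of complex III by 1.31, lost without L.A. replicate 2 or S.A. replicate 2. Of 21 genes of the TCA cycle and pyruvate entry kept, 4 rose and 1 fell, 3 and 1 with the block, and without L.A. replicate 2 the rises came to 2. IDH2, described above, was the largest. DLAT and PDHB, subunits of pyruvate dehydrogenase, rose by 1.46 and 1.19, and ACO1, the cytosolic aconitase that also senses iron, fell by 1.18. PDHB lost its call without L.A. replicate 2.

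SLC25A20 and CPT1A, which bring fatty acids into mitochondria, were higher in L.A. than in S.A. and lay above Ctrl on both L.A. arrays. SLC25A20, which moves acylcarnitines across the inner membrane, was at 12.04 and 12.43 in L.A., 9.23 and 9.19 in S.A. and 10.04 and 9.78 in Ctrl. CPT1A, the enzyme that commits fatty acids to oxidation, was at 11.69 and 11.55 in L.A., 9.63 and 9.18 in S.A. and 9.90 and 10.52 in Ctrl, and HADH, which acts inside the matrix, rose by 1.44. PPARGC1A, a coactivator of mitochondrial genes, was at 11.41 and 11.35 in L.A., 13.31 and 13.58 in S.A. and 11.78 and 11.51 in Ctrl, a return from a high S.A. level. Of the 22 genes of fatty acid oxidation and PGC-1 kept, 5 rose and 1 fell, 3 and 1 with the block, and the median difference was 0.22 (0.09 for L.A. minus Ctrl). Leaving out either L.A. array or S.A. replicate 1 left 3 rises.

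Of 22 genes of glutamine and amino acid supply kept, 2 rose and 7 fell, 1 and 5 with the block, with a median difference of -0.21. GLUL, which makes glutamine from glutamate and ammonia, was at 14.11 and 14.81 in L.A., 10.99 and 9.91 in S.A. and 13.62 and 13.79 in Ctrl, a return by 4.01. GLULP3, a pseudogene copy of GLUL, rose by 3.81, and signal shared between the copies cannot be told apart. ASNS, asparagine synthetase, was at 10.98 and 11.32 in L.A., 14.02 and 13.42 in S.A. and 11.74 and 11.99 in Ctrl, and SLC7A11, the cystine importer, at 5.98 and 5.42 in L.A., 7.58 and 8.38 in S.A. and 7.61 and 7.32 in Ctrl. SLC7A1, an importer of arginine and lysine, fell by 1.41. ASNS thus returned from a high S.A. level, and SLC7A11 was low in L.A. alone.

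Genes of the integrated stress response that were called were nearly all lower in L.A. Of 29 genes of the integrated stress response kept, 12 fell and 1 rose, 10 and 1 with the block, against 7.24% and 8.7% of all genes and 3.8% and 4.85% with the block. The median difference was -0.55. CHAC1, which degrades glutathione, was at 7.23 and 7.05 in L.A., 10.82 and 10.45 in S.A. and 8.14 and 8.53 in Ctrl, and fell by 3.50 ± 0.21 (limma adjusted p = 0.000689). ATF3, a transcription factor induced by many stresses, was at 5.30 and 5.18 in L.A., 8.37 and 9.02 in S.A. and 5.60 and 5.12 in Ctrl, so L.A. and Ctrl overlapped and S.A. was high. CHAC1, STC2 and INHBE were lower in L.A. than in Ctrl on both arrays. The 1 rise was that of DDIT4, which had gone back in part towards a higher Ctrl level. Its L.A. minus Ctrl difference was not called (limma adjusted p = 0.137). ATF4 and DDIT3, the regulators of the pathway, were not called, and ATF4 was at 12.01 ± 0.02 in L.A., 12.33 ± 0.05 in S.A. and 12.40 ± 0.06 in Ctrl (mean ± SD, n = 2 each).

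TGATGNAA, the core of the element that ATF4 binds with C/EBP factors, was in 9 of 25 promoters of this list (36%) and in 1.87% of those of protein-coding genes kept. ASNS, described above, holds a match at position -68 and is not shown. The stretch from position -250 to position -101 is shown for 2 other named genes that hold a match, with the match in capitals. They are CHAC1 (chr15:40953221-40953370, plus strand) and ATF3 (chr1:212565157-212565306, plus strand) of RefSeq on GRCh38.p14.
CHAC1: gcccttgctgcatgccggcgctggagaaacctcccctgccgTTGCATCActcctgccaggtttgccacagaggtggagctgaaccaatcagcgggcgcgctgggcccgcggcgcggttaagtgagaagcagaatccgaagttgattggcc
ATF3: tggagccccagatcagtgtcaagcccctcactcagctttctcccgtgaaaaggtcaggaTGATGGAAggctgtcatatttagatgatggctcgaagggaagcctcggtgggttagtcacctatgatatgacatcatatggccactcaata

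Of 31 genes of the unfolded protein response kept, 9 fell and 1 rose, 6 and 0 with the block, with a median difference of -0.43. SEL1L, a part of the machinery that sends misfolded proteins to degradation, was at 14.50 and 14.23 in L.A., 17.38 and 17.63 in S.A. and 15.24 and 15.14 in Ctrl, and DNAJB9, a cochaperone, at 10.53 and 10.72 in L.A., 13.05 and 13.02 in S.A. and 11.23 and 10.76 in Ctrl. Both had returned. ERN1, the sensor IRE1 that splices XBP1 mRNA, was at 10.70 and 10.10 in L.A., 13.13 and 13.67 in S.A. and 11.84 and 11.81 in Ctrl, and HERPUD1, another degradation factor, at 15.08 and 15.22 in L.A., 18.06 and 17.91 in S.A. and 17.19 and 17.17 in Ctrl. L.A. was the lowest group for both. The chaperones HSPA5, CALR, CANX and HSP90B1, with XBP1 and CRELD2, were the 6 of 27 members with a promoter that held the endoplasmic reticulum stress element, CCAAT and CCACG 9 bases apart, and none of the 6 was called. That element was in 0.158% of promoters of protein-coding genes kept.

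Of 15 immediate early genes kept, 5 fell and 3 rose, 4 and 1 with the block, with ATF3 the largest. Leaving out any 1 of the 4 acid arrays left 1 rise. JUN, a subunit of AP-1, was at 10.75 and 10.12 in L.A., 12.43 and 12.66 in S.A. and 9.30 and 9.67 in Ctrl, a partial return. Its L.A. minus Ctrl difference was not called (limma adjusted p = 0.115). KLF6, a zinc finger factor, fell by 1.67 and JUND, another AP-1 subunit, by 1.19. Of 17 heat shock chaperones kept, 3 fell and 0 rose, 2 with the block, against 7.24% of all genes called lower. All 3 had returned. HSPH1 fell by 1.33 and DNAJB1 by 1.06. DNAJB4 fell by 0.80, a call lost with the block, without either L.A. array and without S.A. replicate 2.

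Lysosome and autophagy genes that were called were mostly lower, with 2 of 28 kept higher and 11 lower, 2 and 6 with the block. The shares over all genes were 8.7% and 7.24%, and 4.85% and 3.8% with the block. The median difference was -0.55. The falls came to 3 without L.A. replicate 1 and to 5 without L.A. replicate 2 or S.A. replicate 2. SQSTM1, the autophagy receptor p62, was at 11.80 and 11.90 in L.A., 14.80 and 15.05 in S.A. and 12.56 and 12.21 in Ctrl, so it fell by 3.07 and had returned. Its second, dimmer probe set differed by -1.07. SCARB2, which carries glucocerebrosidase to lysosomes, was at 10.82 and 10.87 in L.A., 12.47 and 12.28 in S.A. and 12.39 and 12.41 in Ctrl, low in L.A. alone, and the cathepsin CTSZ rose by 2.23 back to the Ctrl level. CACGTGA, the core of the element bound by TFEB, was in 20.8% of 24 promoters of this list and 5.6% of those of protein-coding genes kept. Of 16 V-ATPase genes, the proton pump of lysosomes, 0 rose and 4 fell, 1 with the block. Of all genes, 7.24% were called lower, and 3.8% with the block. ATP6V0E1 was at 13.92 and 14.09 in L.A., 16.08 and 15.81 in S.A. and 14.44 and 14.39 in Ctrl, a return. ATP6AP2, ATP6V0D1 and ATP6V0E2 fell by 0.96, 0.87 and 0.69, and all 3 calls were lost with the block. V-ATPase falls came to 1 without L.A. replicate 1 or S.A. replicate 1 and to 2 without S.A. replicate 2.

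HVCN1 and CA2 led the changes in acid handling. Of 13 acid and bicarbonate transport genes kept, 1 rose and 3 fell, 1 and 1 with the block, against 8.7% and 7.24% of all genes, and the median difference was -0.07. CA2, a cytosolic carbonic anhydrase, was at 9.85 and 9.95 in L.A., 8.44 and 8.24 in S.A. and 9.19 and 9.16 in Ctrl, so it ran opposite to HVCN1, with L.A. above and S.A. below Ctrl. For CA2, L.A. minus Ctrl was not called (limma adjusted p = 0.058). CA13, another carbonic anhydrase, fell by 0.88 and BSG, the partner that brings lactate transporters to the membrane, by 0.71. CA13's second, dimmer probe set differed by 0.21, the other way, and its call was lost in the mean over probe sets. The calls for CA13 and BSG were lost with the block, and the falls came to 1 without either L.A. array or S.A. replicate 1. Of 7 acid-sensing receptors and channels kept, 1 was called: the ATP-gated channel P2RX4 rose by 1.01, a call lost without either L.A. array.

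Most genes of class II antigen presentation were called lower in L.A. than in S.A. Of 13 MHC class II genes kept, 9 fell and 0 rose, 8 with the block, against 7.24% and 3.8% of all genes, and the median difference was -1.64. All 9 called genes had Ctrl near S.A. HLA-DOA, which was not called, was at 4.05 and 5.00 in L.A., 6.04 and 4.78 in S.A. and 9.36 and 9.40 in Ctrl, so both acid cultures lay far below Ctrl. HLA-DRB1, a beta chain, was at 11.46 and 11.72 in L.A., 14.25 and 13.58 in S.A. and 13.87 and 14.18 in Ctrl, and HLA-DQA1, an alpha chain, at 11.68 ± 0.37 in L.A., 13.98 ± 0.26 in S.A. and 14.15 ± 0.22 in Ctrl (mean ± SD, n = 2 each). HLA-DQB1 fell by 1.96 and HLA-DMA, which loads peptide, by 1.93. S.A. and Ctrl lay close in these 4 genes and L.A. was below both. CIITA, the activator of class II genes, was not called, with 13.86 and 13.84 in L.A., 14.91 and 14.39 in S.A. and 14.90 and 15.28 in Ctrl. HLA-DRB1 has near-identical paralogs, so its probes may read several genes. Of 17 class I genes kept, 2 rose and 3 fell, 1 and 0 with the block, against 8.7% and 7.24% of all genes. ERAP2 rose by 1.33, PSMB9 rose by 0.96, and HLA-B and ERAP1 fell by 0.96 and 0.85. The block ended the calls for PSMB9, HLA-B and ERAP1, and that for ERAP2 was lost without L.A. replicate 2 or either S.A. array. Class I falls came to 0 without L.A. replicate 1 and 1 without either S.A. array.

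Of 21 plasma cell identity genes kept, 8 fell and 3 rose, 6 and 3 with the block, against 7.24% and 8.7% of all genes, and the other 10 were not called. TNFRSF17, the receptor BCMA that is a target of myeloma therapy, was at 13.85 and 13.78 in L.A., 16.67 and 16.36 in S.A. and 14.14 and 14.30 in Ctrl, a return. CD38, an ectoenzyme targeted by daratumumab, was at 19.05 and 19.14 in L.A., 17.46 and 17.44 in S.A. and 17.53 and 17.36 in Ctrl, an added rise of 1.64 ± 0.14 (limma adjusted p = 0.00168). The L.A. arrays had more CD38 and less SLAMF7 signal than those of both other groups. PRDM1 and IRF4, the transcription factors of plasma cells, were not called, with PRDM1 at 16.80 and 16.75 in L.A., 17.16 and 17.13 in S.A. and 16.52 and 16.57 in Ctrl and IRF4 at 15.75 and 15.71 in L.A., 16.08 and 16.25 in S.A. and 15.97 and 15.80 in Ctrl.

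Of 21 B cell identity genes kept, 6 rose and 1 fell, 6 and 0 with the block, and in 5 of the 7 called Ctrl lay near S.A. Besides CD180 and ID2, ID3, another inhibitor of E proteins, was at 7.40 and 7.26 in L.A., 4.54 and 4.66 in S.A. and 4.07 and 4.15 in Ctrl. BLK, a Src family kinase of B cells, was at 9.39 and 9.82 in L.A., 6.99 and 6.79 in S.A. and 7.80 and 7.42 in Ctrl, and its second, dimmer probe set differed by -0.88, the other way. Its call was lost in the mean over probe sets. MS4A1, PAX5 and EBF1, the classical B cell genes, were not called, with MS4A1 at 4.81 and 4.65 in L.A., 3.51 and 4.07 in S.A. and 4.11 and 3.66 in Ctrl and PAX5 at 4.08 and 4.12 in L.A., 4.18 and 4.93 in S.A. and 4.84 and 4.17 in Ctrl.

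Among 22 genes of myeloma drivers and therapy kept, 5 rose and 4 fell, 3 and 3 with the block, and leaving out either L.A. array or S.A. replicate 2 left 3 rises. MAF, a transcription factor deregulated in some myelomas and a known activator of ITGB7, was at 14.30 and 14.54 in L.A., 10.87 and 10.55 in S.A. and 12.59 and 12.65 in Ctrl, highest in L.A. and lowest in S.A. with no overlap. NSD2, the histone methyltransferase switched on by the t(4;14) translocation, was at 12.65 and 12.46 in L.A., 11.02 and 10.64 in S.A. and 11.35 and 11.73 in Ctrl, a rise of 1.72 ± 0.21 (limma adjusted p = 0.00491). FGFR3, the other t(4;14) marker looked at, lay under the filter median of 3.77 on all 6 arrays, at 3.14 to 3.52.

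Of 21 chemokine, cytokine and S1P receptors kept, 4 rose and 3 fell, 2 and 2 with the block, against 8.7% and 7.24% of all genes. The rises came to 2 without either L.A. array or S.A. replicate 1. CCR1 and S1PR1 led the rises and IL6R the falls. IFNAR2, a subunit of the type I interferon receptor, fell by 1.37 back to the Ctrl level. Of 17 adhesion genes kept, 3 rose and 3 fell, also with the block, and the falls came to 1 without L.A. replicate 1. ITGB7 and EMP2 rose and NCAM1 fell, as given above. CD44, a hyaluronan receptor, rose by 1.45 in L.A. alone, and the laminin-binding integrin subunit ITGA6 fell by 1.83, a call lost without L.A. replicate 1.

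Of 29 Notch, Wnt and BMP genes kept, 8 rose and 3 fell, 7 and 3 with the block, against 8.7% and 7.24% of all genes. The same shares apply to the NF-kappaB targets. ID2 and ID3, which BMP signals induce, rose, and HEY1 and WNT10A fell. Of 17 NF-kappaB targets kept, 1 rose and 4 fell, 1 and 3 with the block, and 2 fell without L.A. replicate 1. CCL3, a chemokine that myeloma cells release and CCR1 binds, was at 6.64 and 6.86 in L.A., 11.31 and 10.35 in S.A. and 7.48 and 8.00 in Ctrl, so ligand and receptor moved in opposite directions in L.A. PLEK, a protein kinase C substrate, was at 6.39 and 6.59 in L.A., 9.68 and 9.56 in S.A. and 6.71 and 6.58 in Ctrl. TNFAIP3, a brake on NF-kappaB, fell by 1.05, lost without L.A. replicate 1. Of 18 interferon response genes kept, 2 rose and 1 fell, also with the block, against 8.7% and 7.24% of all genes. CXCL10 was the largest, IFIH1, a sensor of double-stranded RNA, fell by 2.58 and IRF1, a transcription factor that rose, was at 6.44 and 6.65 in L.A., 5.70 and 5.39 in S.A. and 4.78 and 4.84 in Ctrl, a call lost without L.A. replicate 2 or S.A. replicate 2.

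BMF and BID, cell death genes of the BCL2 family, lay at Ctrl levels in L.A. BMF, a BH3-only activator of apoptosis, was at 7.13 and 7.09 in L.A., 9.74 and 10.13 in S.A. and 7.12 and 6.82 in Ctrl, and PMAIP1, the BH3-only protein NOXA, at 5.13 ± 0.07 in L.A., 7.34 ± 0.23 in S.A. and 4.43 ± 0.16 in Ctrl (mean ± SD, n = 2 each). BID, which links death receptors to mitochondria, was at 9.93 and 9.75 in L.A., 8.08 and 8.24 in S.A. and 9.86 and 10.04 in Ctrl, and BAK1, a pore-forming effector with Ctrl in the middle of its range, rose by 1.29. S.A. was the high group for BMF and PMAIP1 and the low group for BID and BAK1. PMAIP1 came near Ctrl but stayed above it on both L.A. arrays, at 5.09 and 5.18 against 4.32 and 4.54. That difference was not called (limma adjusted p = 0.0931). Of 14 pro-death genes kept, 2 rose and 3 fell, also with the block, against 8.7% and 7.24% of all genes. Of 11 pro-survival genes, BCL2 fell by 0.88 and BCL2L1 rose by 0.70, and neither call held with the block.

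Of 23 antioxidant genes kept, 5 rose and 3 fell, 4 and 3 with the block. Without L.A. replicate 1, 3 rose, and without L.A. replicate 2, 5 fell. HMOX1, heme oxygenase, was at 6.33 and 6.76 in L.A., 5.16 and 4.55 in S.A. and 5.52 and 5.61 in Ctrl, and TKT, a pentose phosphate enzyme that rose, at 12.09 and 12.44 in L.A., 10.75 and 10.78 in S.A. and 12.28 and 11.91 in Ctrl. Of 28 proteasome genes kept, 3 rose, PSMB2 by 1.34, PSMA7 by 1.01 and PSMD6 by 0.86, a share near that of all genes. A second, dim probe set of PSMB2 differed by 0.18. The call for PSMD6 was lost with the block, and 1 of the 3 was left without L.A. replicate 2. MYC was at 16.47 and 16.73 in L.A., 17.49 and 17.42 in S.A. and 17.05 and 16.84 in Ctrl, so it fell by 0.85, a call lost with the block (limma adjusted p = 0.0726). Of 22 genes of MYC and ribosome biogenesis kept, LYAR, NOLC1 and MYCN rose by 0.96, 0.66 and 0.60, and 0 of the list was called with the block. Of 23 ribosomal protein genes kept, 5 rose, among them RPL35 by 1.29, RPL5 by 1.17, RPL29 by 0.92 and RPL11 by 0.76, and 0 were called with the block. Ribosomal protein rises came to 1 without L.A. replicate 1 and 0 without L.A. replicate 2 or S.A. replicate 2, and those of the MYC list to 0 without either L.A. array or S.A. replicate 2. Where a list had limma calls in 1 direction alone, the other held 4 heat shock genes and 3 V-ATPase genes at an unadjusted p under 0.05, and at most 1 gene in each other list.

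**Figure D4:**
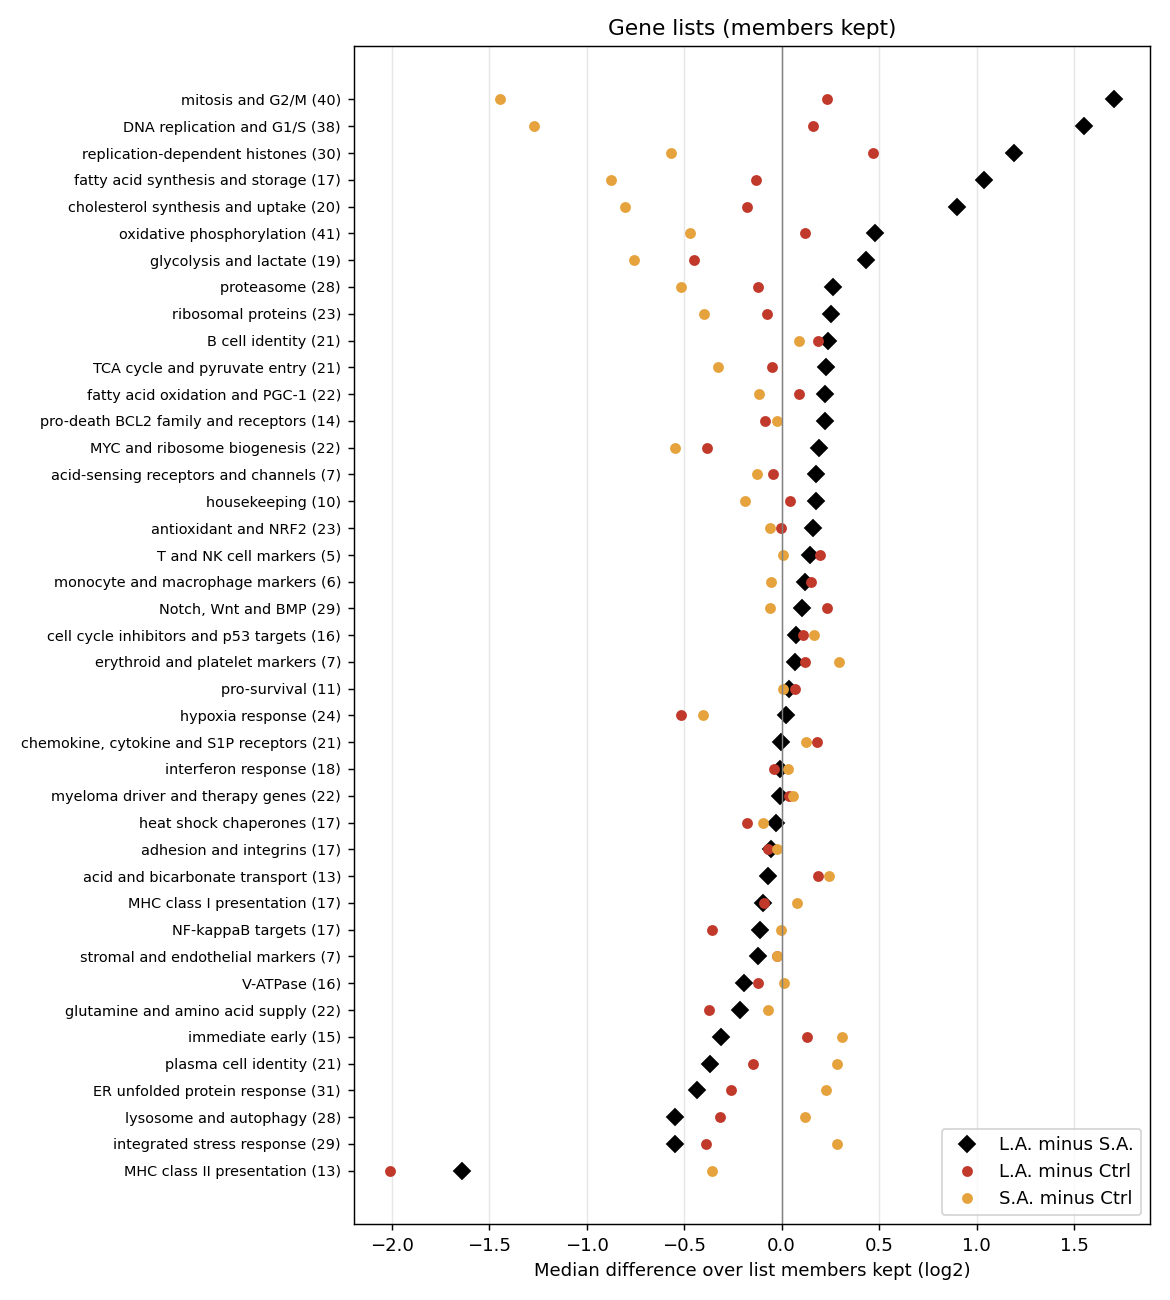
Median difference over the members kept of each gene list (horizontal axis, log2), for L.A. minus S.A., L.A. minus Ctrl and S.A. minus Ctrl, with the number of members in parentheses. Mitosis, at 1.71, has the highest L.A. minus S.A. median and MHC class II, at -1.64, the lowest.

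Of the small nucleolar and Cajal body RNAs called between the acid cultures, nearly all were lower in L.A. These guide RNAs direct the chemical modification of ribosomal and spliceosomal RNA, and most lie in introns of host genes. The families were picked after their values had been seen. Of 106 C/D box genes (SNORD) kept, 26 fell and 0 rose, 20 with the block, with a median difference of -0.39. Of 70 H/ACA box genes (SNORA), 16 fell and 1 rose, 12 and 0 with the block, at a median of -0.31, and of 20 Cajal body genes (SCARNA), 12 fell and 1 rose, 7 and 0 with the block, at a median of -0.84, against 7.24% of all genes called lower and 3.8% with the block. Most SNORD and SNORA genes were not called, and the median level over the SNORD genes overlapped, at 7.34 and 6.98 in L.A. and 7.20 and 7.14 in S.A. Of 44 spliceosomal and other snRNA genes, 3 were lower and 0 higher by limma, a share of 6.82% that is near that of all genes. SCARNA21 was at 6.80 and 6.12 in L.A., 10.22 and 10.09 in S.A. and 5.82 and 6.41 in Ctrl, SCARNA6 at 8.95 and 9.54 in L.A., 12.81 and 12.60 in S.A. and 9.12 and 8.35 in Ctrl and SCARNA7 at 12.78 and 12.23 in L.A., 15.52 and 15.66 in S.A. and 11.92 and 11.90 in Ctrl. S.A. was the high group for each, and L.A. lay close to Ctrl for SCARNA21. The other, dimmer probe sets of SCARNA21 differed by -0.36 and -0.07, and in the mean over its probe sets it differed by -1.38. SNORD71 fell by 2.76 and SNORA47 by 2.65. The labelled cDNA was made from total RNA by in vitro transcription, and how well RNAs this short were carried through was not tested.

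Among other noncoding genes, LOC100126447, a long noncoding RNA, was at 10.06 and 10.17 in L.A., 6.90 and 6.13 in S.A. and 9.03 and 9.56 in Ctrl, a return, and LINCMD1, a long noncoding RNA of muscle, rose by 3.05 in L.A. alone. The pseudogene CCDC144CP fell by 4.09, and NAMPTP3, a copy of the NAD salvage gene NAMPT, fell by 3.62. Signal from NAMPT itself cannot be told apart there.

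Of 698 microRNA genes kept, 14 rose and 19 fell (4.73%), a smaller share than over all genes. The 5 genes of the miR-550 family, which are near-identical copies on chromosome 7, all fell and were picked after their values had been seen. MIR550A2 was at 6.13 and 5.91 in L.A., 8.62 and 8.54 in S.A. and 6.48 and 6.43 in Ctrl, MIR550A3 at 7.21 and 7.13 in L.A., 9.12 and 8.68 in S.A. and 7.54 and 7.82 in Ctrl and MIR550A1 at 6.91 and 7.11 in L.A., 8.49 and 8.62 in S.A. and 6.67 and 6.40 in Ctrl. MIR550B1 fell by 0.89 and MIR550B2 by 1.11, and only MIR550B1 was not called with the block (limma adjusted p = 0.065). The B genes lie on the opposite strand of A genes, so each pair shares its place in the genome, and the copies are not independent. The mature sequences are those of RefSeq on GRCh38.p14, with the seed, bases 2 to 8, in capitals. They are shown because the A copies share their seeds. The array reports the gene and not the mature arm.
hsa-miR-550a-5p: aGUGCCUGagggaguaagagccc
hsa-miR-550a-3p: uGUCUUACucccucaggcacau
hsa-miR-550b-3p: uCUUACUCccucaggcacug

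Protein-coding genes of some chromosomes shifted together between the acid cultures. On chromosome 22 the median L.A. minus S.A. was 0.39, with 85 genes higher and 6 lower, and on chromosome 9 it was 0.31, with 112 higher and 17 lower. Chromosomes 10 and 11, with 467 and 753 genes, had medians of 0.23 and 0.22, with 95 and 153 genes higher and 25 and 29 lower. With the block, 55 and 87 were higher and 16 and 12 lower. Chromosome 3 had a median of 0.14, and chromosome 18 the lowest, -0.12. Over all protein-coding genes the median was 0.04, with 12.3% called higher and 9.75% lower, 7.29% and 5.24% with the block. The medians of L.A. minus Ctrl were 0.04 and -0.09 on chromosomes 22 and 9, and -0.07 and -0.06 on chromosomes 10 and 11, so S.A. was the group that stood apart. S.A. minus Ctrl, which shares the S.A. arrays, was -0.35 and -0.42 on chromosomes 22 and 9. MKI67, LDHA, E2F8, CDC45 and CDKN2A lie on these 4 chromosomes and rose, and NCAM1 and PLAAT4 lie on chromosome 11 and fell. The part of these shifts in the gene results, and DNA copy number, were not tested.

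**Figure D5:**
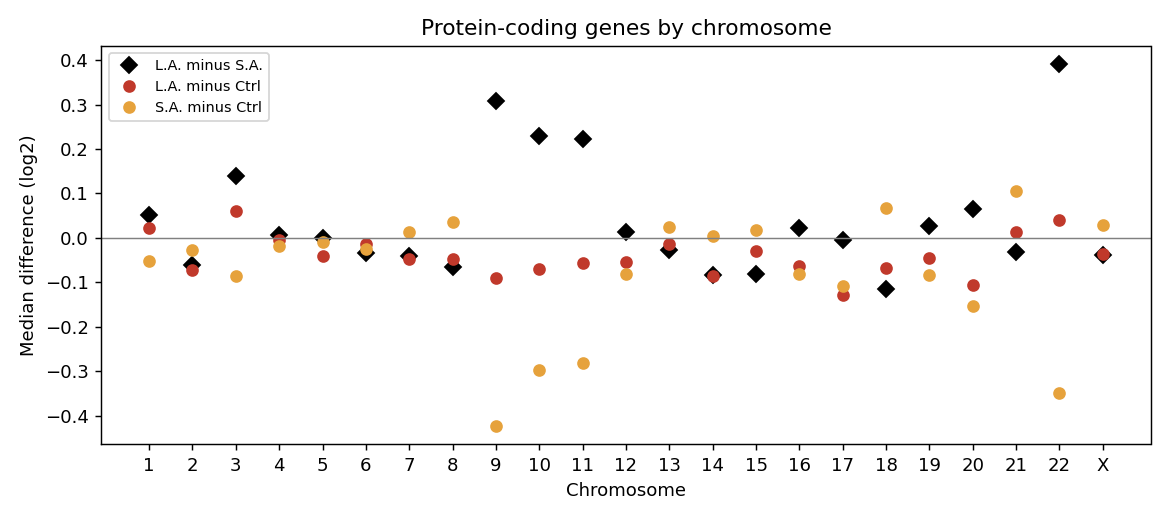
Median difference over the protein-coding genes of each chromosome (vertical axis, log2) for L.A. minus S.A., L.A. minus Ctrl and S.A. minus Ctrl. Chromosomes 22 and 9 have L.A. minus S.A. medians of 0.39 and 0.31, with L.A. minus Ctrl near 0.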

How the data were processed

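Total RNA of LP-1 cells was turned into biotin-labelled cDNA and hybridized to arrays. The deposited values, made by the authors with RMA in the Transcriptome Analysis Console per the submitters' processing notes, were taken as log2, and every difference rests on that base. That base, like versions and array build, was not given in the sources used here. RMA corrects background and quantile-normalizes arrays, which hides shifts shared by all genes. No detection calls were given, so differences against a group near the median of 3.77 depend on background.

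Of 135574 probe sets, 36176 had 1 symbol, 1119 several and 98279 none. Of the first, 25516 matched the GRCh38.p14 gene table by gene ID, 9899 by symbol and 761 not at all. The brightest probe set per symbol was kept where its mean over 6 arrays reached the median of all probe sets; 1337 of the 21070 genes had several probe sets.

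Groups were fitted over all 6 arrays with limma 3.58.1 in R 4.3.3 (lmFit, eBayes, two-sided), with Benjamini-Hochberg adjustment over 21070 genes and calls under 0.05. The fit was run on simulated data to check the size and sign of known differences, which does not vouch for the p-values here. With 2 arrays a group, an exact permutation test has 6 arrangements and cannot go below p = 0.333. SDs and SEs rest on few arrays.

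Same-numbered arrays did not deviate together: correlations of deviations from group means were -0.41 (L.A. and S.A.), -0.47 (L.A. and Ctrl) and -0.56 (S.A. and Ctrl). Of the sum of squares within groups, 1.18% fell to replicate number, against 33.3% by degrees of freedom, so counts with the replicate block, which were lower, stand beside the others. The fit without the block had 3 residual degrees of freedom, against 2 with it, and counts this nearly empty part among them. The SEs given here and many adjusted p-values come from that fit and may be too small. For some leading genes the adjusted p was smaller with the block. Why replicate number held so little was not tested. Where separate cultures are not described beyond the word biological, p-values measure the spread between these arrays.

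Named genes were the 12 largest rises and falls called with and without the block, the 4 largest per list, Ctrl class and direction, the 4 largest noncoding genes per direction, called markers, and a short fixed set; others named were picked after their values were seen. One gene that the rule names is not reported here. The members and lists were chosen with earlier results of these data known.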

Additional observations from a re-analysis of the deposited data

How the results depend on the processing

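All 158 named genes kept their direction in every setting that held them, but not all were called in each. Most had been picked for called and large differences on these same arrays, so their direction was close to fixed in advance. With the replicate block, 1022 genes were called higher and 801 lower, against 1834 and 1526 without it, and 22 of the named genes lost their call. Leaving out 1 acid array gave 845 to 1361 genes higher and 658 to 1022 lower, with partial returns at 3.74% to 6.12% and moves further from Ctrl at 1.07% to 1.68% of called genes. Asking for a difference of at least 1 gave 1041 higher, 806 lower and 5.09% partial returns. Widening the near classes to 0.5 of the difference put 28.2% of called genes near S.A., 4.67% in partial return and 1.19% further from Ctrl, and narrowing them to 0.25 put 36.6% near L.A. and 38.1% with Ctrl in the middle, against 47.1% and 26.6%. A crossed pairing of the replicate numbers within the acid arrays, chosen after seeing the data, gave 3047 higher and 2649 lower. The causes were not tested. Filters, mean over probe sets, centring, trend, robust moderation and a fit on the acid arrays alone kept the counts within 1.5 times. With 2 arrays a group and no detection calls, small differences near background could not be resolved.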
